A study of Mus musculus with 6 samples.

Results

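The Klk1b kallikrein genes described here were Klk1b16, Klk1b21, Klk1b22, Klk1b24 and Klk1b27, close copies of one another in the glandular kallikrein array of the mouse. They were chosen by their exact symbols, and all 5 were among the 10580 genes listed in the processed table of this study of mouse Leydig cells. The choice was made with the listed levels and the stage comparison of the same table known, without a threshold on any value, so their levels are given as a description, singly and summed, with no test.

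The study sequenced RNA of testicular cells of male mice of the genotype Nr5a1 Tg, in which a GFP transgene is driven by regulatory sequence of Nr5a1, so that steroidogenic cells fluoresce. Fetal Leydig cells (FLCs) were sorted at embryonic day 18.5 and adult Leydig cells (ALCs) at postnatal day 100, with 3 libraries per stage, from live single cells with the strongest fluorescence. Embryos came from CD-1 outbred females mated with heterozygous transgenic males, and fetal cells of several sorts were pooled to reach enough RNA. By the methods, fetal testes were dissociated with trypsin and adult testes with collagenase, hyaluronidase and DNase followed by trypsin, so that stage and dissociation cannot be told apart in any value of these libraries.

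Kallikreins are secreted serine proteases that are made as inactive precursors and are activated by removal of a short propeptide. In the mouse the ancestral Klk1, the true tissue kallikrein, which cuts kininogen to release kinins, has been copied many times in tandem, and the copies are named Klk1b followed by a number. The copies are best known from the male salivary gland, where androgens raise several of them. Klk1b22 encodes a protease that was described as a binding protein of epidermal growth factor. Klk1b16 encodes gamma-renin, named for its cleavage of angiotensinogen. Klk1b21, Klk1b24 and Klk1b27 encode the tissue kallikreins mK21, mK24 and mK27, which have been described in Leydig cells of adult mice.

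The 5 genes lay next to each other. In GENCODE vM21 on GRCm38 the array held 14 protein-coding genes on the plus strand of chromosome 7, over 279 kb, with 23 pseudogenes among them, 9 on the plus and 14 on the minus strand. All 14 protein-coding genes were listed in the table and none of the pseudogenes was. By the paper, only protein-coding and long non-coding genes were kept for the comparison. The absence of the pseudogenes therefore says nothing about their expression. Counting protein-coding genes alone, the 5 formed 1 unbroken block of 140 kb that also held 9 of the pseudogenes. In order along the chromosome the block ran from Klk1b27 (chr7:44052290-44056712) through Klk1b21 (chr7:44102328-44106583), Klk1b22 (chr7:44112673-44116922) and Klk1b16 (chr7:44136767-44141610) to Klk1b24 (chr7:44188236-44192455). Klk1b26 lay before the block and Klk1b3 after it. Each of the 5 had 5 exons, and the coding sequence measured 792 bases in Klk1b27 and Klk1b24, 786 bases in Klk1b21 and Klk1b16, and 780 bases in Klk1b22.

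Of the 5 genes, the 3 with the highest levels were also the most alike in coding sequence, and the stretch before their start is shown first because it sets Klk1b21, Klk1b24 and Klk1b27 apart from the other copies. Each line below holds the 88 bases before the letters TTTAAA and those letters themselves, 5′ to 3′ on the plus strand, from the RefSeq promoter windows on GRCm38.p6. Klk1b3, the low neighbour at the end of the block, is shown beside 4 of the 5 genes. Klk1b16 is not shown, since GENCODE places its stretch inside a long first exon. The capitals mark TTTAAA and, before it, 3 positions at which Klk1b21, Klk1b24 and Klk1b27 share a letter that no other window of the 14 genes has there. Over the aligned windows, 5 of the 110 varying positions without gaps held such a letter. Only these 3 genes were searched in this way, so how common such letters are in other sets of copies was not tested.
Klk1b27 (chr7:44052185-44052278): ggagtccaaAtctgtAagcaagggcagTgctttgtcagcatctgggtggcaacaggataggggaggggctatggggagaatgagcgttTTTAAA
Klk1b21 (chr7:44102208-44102301): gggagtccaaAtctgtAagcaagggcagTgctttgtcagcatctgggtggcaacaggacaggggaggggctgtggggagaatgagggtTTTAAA
Klk1b24 (chr7:44188117-44188210): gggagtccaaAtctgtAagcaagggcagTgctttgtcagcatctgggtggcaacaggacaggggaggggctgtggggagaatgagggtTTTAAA
Klk1b22 (chr7:44112545-44112638): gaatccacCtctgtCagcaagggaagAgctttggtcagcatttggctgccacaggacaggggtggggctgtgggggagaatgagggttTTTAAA
Klk1b3 (chr7:44198090-44198183): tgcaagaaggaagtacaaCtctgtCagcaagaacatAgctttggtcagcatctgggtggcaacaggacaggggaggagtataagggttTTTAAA
The stretches of Klk1b21 and Klk1b24 were the same letter for letter, and that of Klk1b27 carried the same 3 marked letters.

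The values of the table are base means, which are the authors' means over all 6 libraries of counts divided by a size factor that corrects for the depth of each library. A base mean has no SD and does not separate FLCs from ALCs. With 3 libraries in each stage, the mean of either stage cannot be more than 2 times the base mean, so 11048 normalised counts is the most that either stage can have averaged for Klk1b21 and 917 for Klk1b16. In whole sorted populations, fewer cells that express a gene and less RNA per cell cannot be told apart. The columns that compare the stages are the authors' own comparison and were not used, and they leave every listed gene with an adjusted p under 0.05, so ranks below are among such genes.

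Klk1b21 had the highest level of the 5, with a base mean of 5524 normalised counts, rank 733 of the 10580 listed genes. Klk1b27 followed with a base mean of 3990 at rank 1139, and Klk1b24 with 3178 at rank 1528. These were the 3 genes for which the marked letters before the start were sought, so the letters are no separate support for this order. Klk1b22 lay below them, with a base mean of 1098 at rank 4103. Klk1b16 was the lowest of the 5, with a base mean of 458 at rank 6047. The median of all listed genes was 679, and 4 of the 5 genes lay above it, Klk1b16 being the one below.

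The 5 genes differ little in coding length, so the order was the same per length. Klk1b21 gave 7028 normalised counts per kb of coding sequence, Klk1b27 5038, Klk1b24 4013, Klk1b22 1407 and Klk1b16 583. The median per kb of coding sequence was 453 over the 10158 listed genes with a known coding length, and all 5 genes lay above it. Ranked on this scale among those genes, Klk1b21 stood at 440, Klk1b27 at 694, Klk1b24 at 893, Klk1b22 at 2470 and Klk1b16 at 4539. The ranks rested on the length used. Per exonic length, among 10223 genes, they were 107 for Klk1b21, 161 for Klk1b27, 206 for Klk1b24, 818 for Klk1b22 and 3156 for Klk1b16. Per kb Klk1b21 was 1.40 times Klk1b27, and Klk1b27 was 1.26 times Klk1b24. The step from Klk1b24 to Klk1b22 was larger, at 2.85 times, and that from Klk1b22 to Klk1b16 was 2.41 times. The order of these 2 steps rested on the length used, since the step from Klk1b22 to Klk1b16 was 3.88 times per exonic length, against 2.82 times from Klk1b24 to Klk1b22. The spread between libraries is not known, so which of these neighbours differ beyond it cannot be said.

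**Figure D1:**
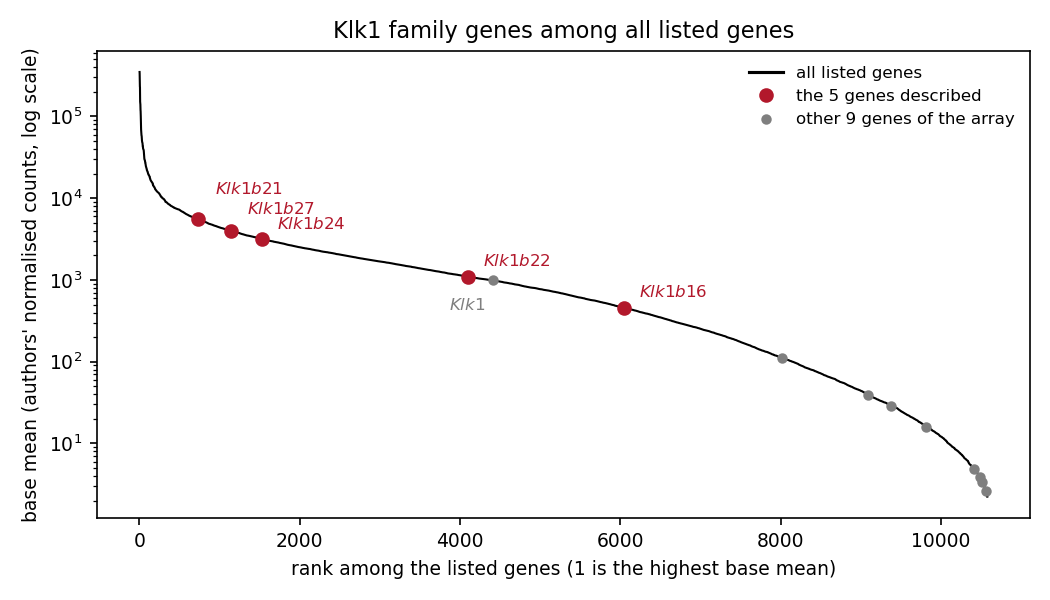
Base mean (log scale) of every listed gene against its rank, as a black line, with the 14 Klk1 family genes as points. Klk1b21, Klk1b27 and Klk1b24 sit between ranks 733 and 1528, Klk1b22 and Klk1b16 further down at ranks 4103 and 6047, and 8 of the other 9 family genes at rank 8013 or lower in the table.

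Summed, the 5 genes had a base mean of 14248 normalised counts. As 1 gene this sum would have ranked 174th in the table, and it made up 0.0641% of the sum over all listed genes. Klk1b21 held 38.8% of the 5-gene sum, Klk1b27 28.0%, Klk1b24 22.3%, Klk1b22 7.70% and Klk1b16 3.22%. Klk1b21, Klk1b24 and Klk1b27 together thus held 89.1% of it. The share of Klk1b16 depended on length, at 2.06% per exonic length and 1.67% per 50-base window that matches no other gene.

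The levels changed sharply at both ends of the block. Its 5 genes were chosen with the levels known, so these steps are a description and no finding about the array. Per kb of coding sequence, Klk1b27 at the first end was 136 times its neighbour Klk1b26, a gene known for a protease that activates prorenin, and 213 times per exonic length. At the other end Klk1b24 was 932 times Klk1b3. Klk1b3, with a base mean of 3.38, Klk1b4 with 3.93, Klk1b11 with 2.66 and Klk1b9 with 4.82 were all near the lowest value of the table, 2.24. Klk1b5 had a base mean of 16.1, Klk1b26 29.2, Klk1b1 39.7 and Klk1b8 112. Klk1b16, the lowest of the 5 genes, was 4.11 times Klk1b8, the highest of these 8 copies, per kb of coding sequence, but 2.54 times per exonic length and 2.14 times per 50-base window that matches no other gene.

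Klk1 itself was the exception among the other 9 genes. Its base mean was 986 at rank 4416, and per kb of coding sequence it gave 1255 normalised counts, between Klk1b22 and Klk1b16. Klk1b22 was 1.12 times Klk1 and Klk1 was 2.15 times Klk1b16 on that scale, and 3.99 times per window that matches no other gene. The 5 genes held 92.2% of the base mean summed over the 14 genes of the array, and Klk1 a further 6.39%. That share, too, rests on a choice of genes made with the levels known.

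**Figure D2:**
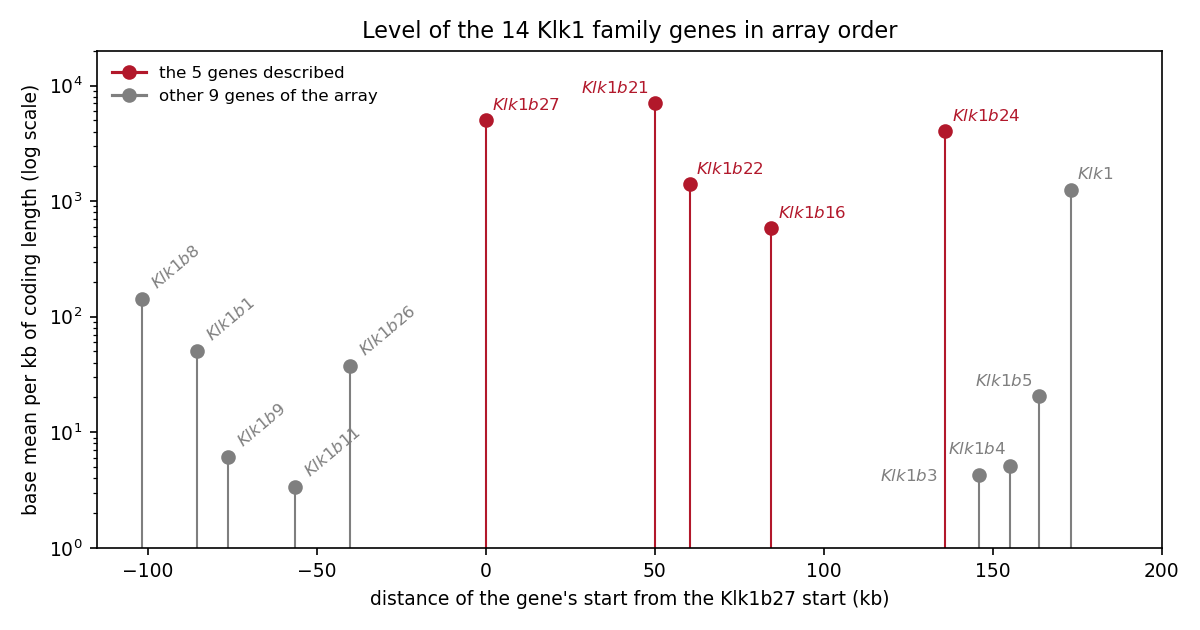
Base mean per kb of coding sequence (log scale) of the 14 protein-coding genes of the array against the distance of their start from that of Klk1b27 in kb. The 5 genes described (red) run from 583 to 7028, whereas the other 9 (grey) lie between 3.38 and 142 apart from Klk1 at 1255.

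In the coding sequence, too, Klk1b21, Klk1b24 and Klk1b27 formed a close group. Klk1b21 matched both of the others at 94.0% of aligned bases, and Klk1b24 matched Klk1b27 at 93.6%. Pairs of one of these genes with Klk1b22 or Klk1b16 matched at 85.1% to 89.3%, and pairs with any of the other 11 genes at 84.0% to 90.7%, the highest being Klk1b24 with Klk1b11. The median over all 91 pairs of the 14 genes was 86.7%. Klk1b22 was nearest to Klk1b21, at 89.3%. Klk1b16 was nearest to a gene outside the 5, Klk1b26, at 92.7%, although Klk1b16 was 15.7 times Klk1b26 in level per kb of coding sequence. Nearness in sequence therefore did not always go with nearness in level: Klk1b5 matched Klk1 at 95.2%, the highest of the 91 pairs, and Klk1 was 61.1 times Klk1b5 per kb and 105 times per window that matches no other gene.

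**Figure D3:**
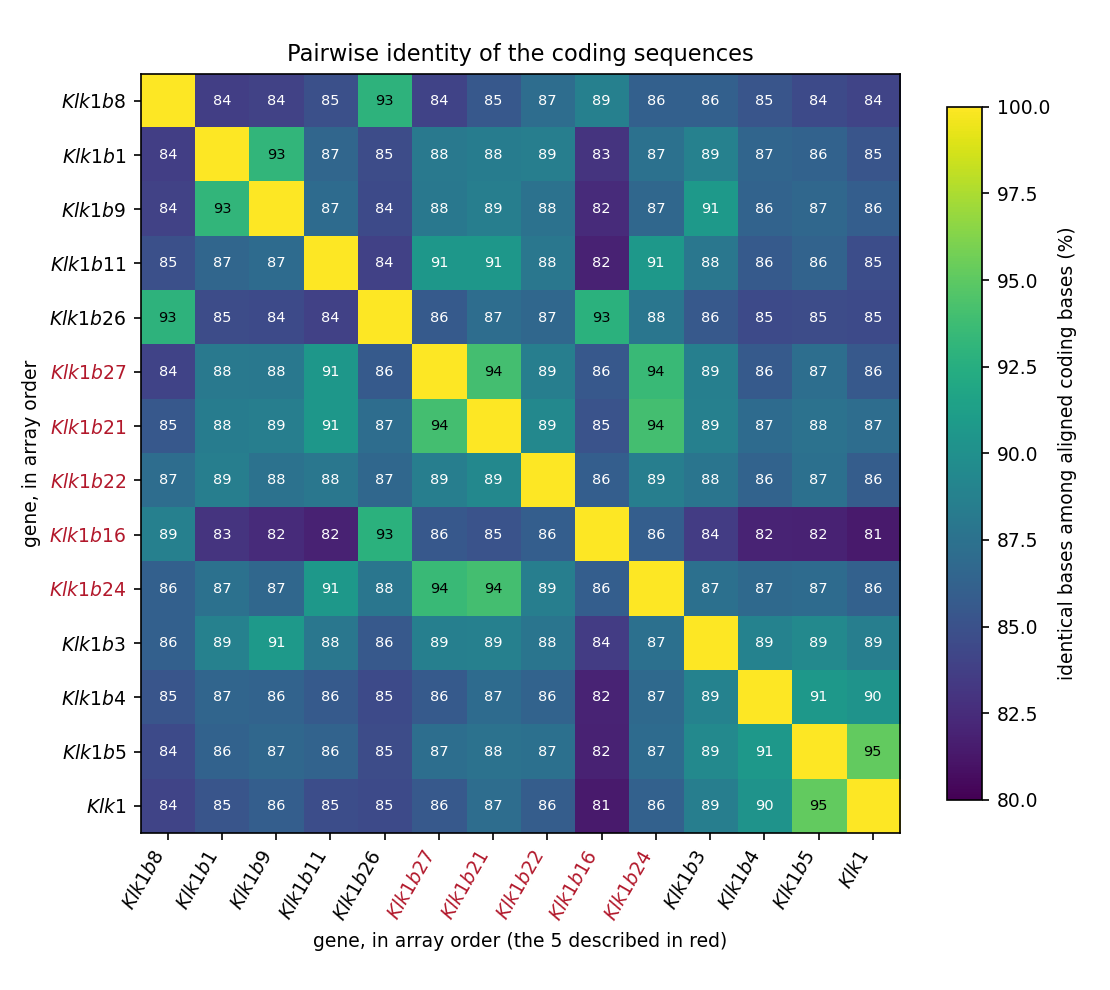
Identical bases as a percent of aligned coding bases for each pair of the 14 genes, in the order of the array, with the 5 genes described in red. Klk1b21, Klk1b24 and Klk1b27 match one another at about 94%. Klk1b16 is nearest to Klk1b26, at 93%, and then to Klk1b8, at 89%.

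Among the genes described, the differences in coding length came from exon 3, in steps that keep the reading frame. Klk1b24 and Klk1b27 held 9 bases at the start of that exon that none of the other 12 genes had, and lacked 3 bases further on that all the others had. Klk1b22 was the only gene of the 14 to lack another 6 bases of exon 3. The stretch around the 9 bases, which are in capitals, is given from the GENCODE vM21 transcripts because it is a place where Klk1b21 can be told from both of its nearest copies. It begins at base 189 of each coding sequence, and exon 3 begins at base 207.
Klk1b27: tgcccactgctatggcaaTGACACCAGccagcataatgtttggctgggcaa
Klk1b24: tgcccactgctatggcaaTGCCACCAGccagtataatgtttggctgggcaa
Klk1b21: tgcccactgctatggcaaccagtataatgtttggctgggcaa
Klk1b22: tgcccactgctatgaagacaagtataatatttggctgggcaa
Klk1b16: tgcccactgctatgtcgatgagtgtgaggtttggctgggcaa
The place of the 9 bases is that of the alignment, which could shift by some bases where the flanks repeat.

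Such close copies share stretches that a short read cannot place by itself. The reads of the study were 50 bases from each end of a fragment, so every 50-base window of each annotated transcript was compared with all transcripts of GENCODE vM21 on both strands. Of the windows of Klk1b24, 66.1% (548 of 829) matched no other gene. The share was 70.9% (583 of 822) for Klk1b21, 85.7% (720 of 840) for Klk1b27, 86.7% (699 of 806) for Klk1b22 and 89.9% (1203 of 1338) for Klk1b16. Klk1b21 and Klk1b24 shared 169 windows with each other, Klk1b27 shared 87 with Klk1b24 and 76 with Klk1b21, and no window of the 5 genes was shared only with a gene outside the Klk1 family. The 2 genes with the fewest windows of their own were thus among the 3 with the highest levels.

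The longest run that Klk1b21, Klk1b24 and Klk1b27 had in common was 106 bases of exon 3, which no other gene of the family held whole, coding bases 389 to 494 of Klk1b27. It is printed because a read inside it cannot, without the other end of its fragment, be given to 1 of these 3 genes.
Klk1b27, Klk1b21 and Klk1b24: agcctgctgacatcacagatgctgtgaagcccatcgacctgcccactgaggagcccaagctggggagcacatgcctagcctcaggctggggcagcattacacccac
Its middle part was also found in other copies.

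The windows of their own were not spread evenly over the exons. Placed by their middle base, all windows of exon 4 were particular to the gene in Klk1b16, Klk1b22 and Klk1b27, against 70.8% in both Klk1b21 and Klk1b24. In exon 3 the share was 64.8% for Klk1b24, 67.9% for Klk1b27 and 73.9% for Klk1b21, against 83.3% for Klk1b16 and 89.7% for Klk1b22. In exon 1, Klk1b24 had 29.3% of windows of its own, the lowest share of any exon of the 5 genes, whereas Klk1b22 had 100%. The long first exon of Klk1b16, 598 bases against 75 to 97 in the other 4, gave 573 of its 1338 windows, and 92.7% of those were its own.

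**Figure D4:**
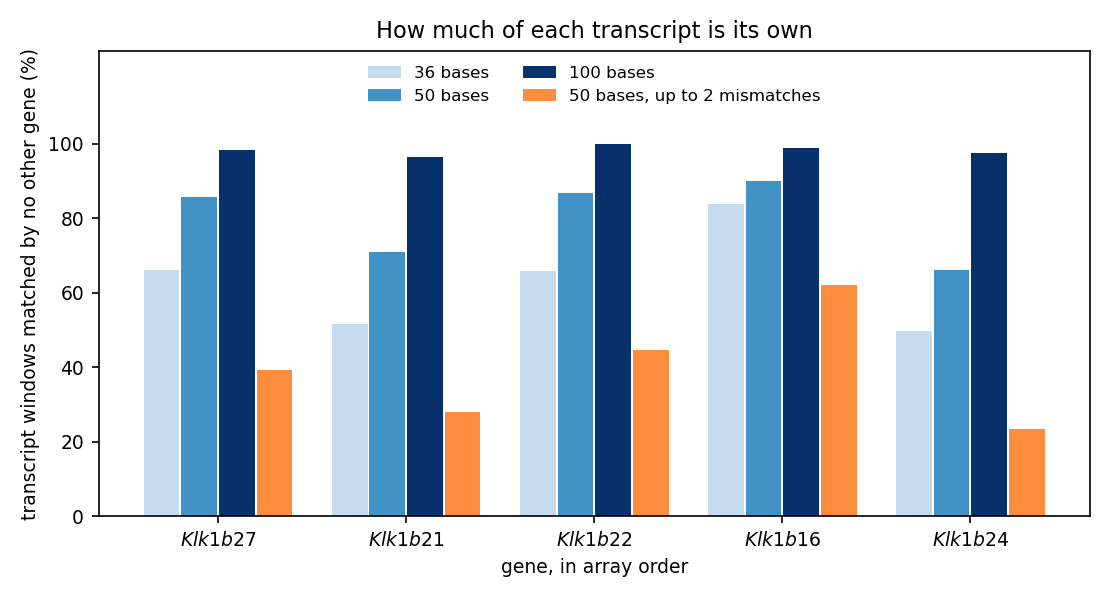
Percent of transcript windows that match no other gene for each of the 5 genes, with windows of 36, 50 and 100 bases, and with 50 bases when a window of another Klk1 family gene may differ at up to 2 bases. At 50 bases the shares run from 66.1% (Klk1b24) to 89.9% (Klk1b16), and with 2 mismatches allowed they fall to between 23.5% and 62.1%.

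How the authors' pipeline treated reads that match several genes is not given in the sources used here, so each single level is uncertain by an amount that was not tested. Most shared windows were shared with another of the 5, namely 261 of 281 in Klk1b24, 220 of 239 in Klk1b21, 106 of 120 in Klk1b27, 95 of 107 in Klk1b22 and 84 of 135 in Klk1b16. Dividing by the windows of a gene's own fits only if reads of shared windows were not counted and each end was placed alone. Whether that was so is not known. When the base mean was divided by the number of windows of a gene's own in place of its length, the order of Klk1b24 and Klk1b27 turned. Per 1000 such windows Klk1b21 gave 9475 normalised counts, Klk1b24 5800, Klk1b27 5541, Klk1b22 1570 and Klk1b16 381. Klk1b21 stayed the highest, Klk1b22 and Klk1b16 stayed in their places with a step of 4.12 times between them, and Klk1b21, Klk1b24 and Klk1b27 together held 91.4% of the sum. The order of Klk1b24 and Klk1b27 therefore cannot be read from these values.

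**Figure D5:**
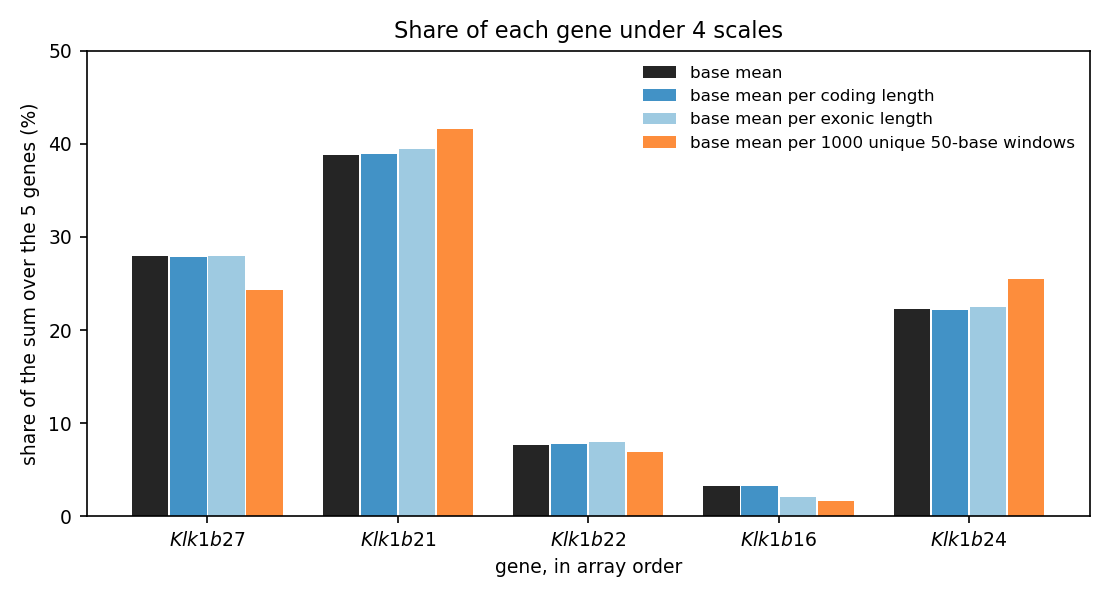
Share of the sum over the 5 genes held by each, for the base mean as listed and after division by coding length, by exonic length or by the number of 50-base windows of its own. Klk1b21 is the highest under each scale, at 38.8% to 41.6%, and Klk1b27 and Klk1b24 change places under the last.

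The windows before the start were also close in these genes, but not only in them. Over the RefSeq windows of 300 bases (250 before the start and 50 from it on), pairs among Klk1b21, Klk1b24 and Klk1b27 matched at 91.3% to 97.7% of aligned bases. Pairs of one of them with any of the other 11 genes matched at 81.1% to 88.1%. Pairs of other copies came as near, with 92.8% for Klk1b4 and Klk1b5 and 91.6% for Klk1b16 and Klk1b11, against 91.3% for Klk1b24 and Klk1b27. Counted over all 300 bases, identity among Klk1b21, Klk1b24 and Klk1b27 was 86.3% to 87.0%, below the 91.0% of Klk1b16 and Klk1b11. The starts are not placed alike, and that of Klk1b21 lies 36 bases earlier in RefSeq than in GENCODE.

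Short motifs were then searched on both strands of the same windows. TATAAA, the usual form of the TATA box, was in none of the 5 windows, and 13.6% of the 32851 mouse promoter windows held it. TTTAAA, added to the search after the sequences were seen, was in all 5 windows and in 13 of the 14 of the family, against 13.2% of all windows. It began 17 bases before the start of Klk1b27, 31 before that of Klk1b24, 40 before that of Klk1b22 and 39 before that of Klk1b16. In Klk1b21 it began 4 bases after the RefSeq start and 32 before the GENCODE start. AGGTCA, a short site of nuclear receptors, was in 4 of the 5 windows, all but that of Klk1b16, in 11 of the 14 of the family, low Klk1b3, Klk1b4 and Klk1b9 included, and in 16.3% of all windows. In the 4 genes it lay in reverse at each place, 153 to 247 bases before the start, with 3 copies in Klk1b21, 2 each in Klk1b24 and Klk1b27 and 1 in Klk1b22. Because the starts are not placed alike, the window of Klk1b21 reaches further upstream of TTTAAA than those of the other 4. Its copy at 247 bases lies beyond their reach, so these counts cannot be compared between the genes. CAAGGTCA, the longer form that NR5A1 binds, contains AGGTCA and was found once among the 5, in Klk1b21 at 247 bases before the start. That is the same copy, at a place that the windows of the other 4 do not cover. It was also in the window of Klk1, 206 bases before the start, and in 1.56% of all windows. AGAACA, the short site of the androgen receptor, was in Klk1b24 alone of the 5, in Klk1b3 as well, and in 19.0% of all windows, and its palindromic whole site was in none. TGACG and TGACGTCA, the short and whole elements of the cyclic AMP response, were in none of the 5 windows and in 20.8% and 1.79% of all. CCAAT was in Klk1b16, Klk1b21 and Klk1b24, in 10 of the 14 of the family, and in 37.4% of all windows. The 14 windows of the array descend from one another and are not independent, and these matches describe letters and not binding.

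Beyond the array, the same table holds other genes of the paths in which kallikreins act. None of the more distant kallikreins, Klk4 to Klk15, was listed, so the 14 genes of the array were all that was listed of a list of 26. Of 11 genes of the kinin and renin-angiotensin systems, 4 were listed. Agt, which encodes angiotensinogen, had a base mean of 151631, rank 8 of the table, and Ren1, which encodes renin, had 24384. Ace, which encodes the enzyme that makes angiotensin II and breaks down kinins, had 1111, and Kng2, a kininogen, 27.6. Kinin receptors and plasma kallikrein were not among those listed.

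Of 18 inhibitors of serine proteases, 9 were listed. Serpina5, the protein C inhibitor, which also inhibits tissue kallikreins, had a base mean of 22933 and lay above each of the 5 Klk1b genes also per kb of coding sequence, with 18829 against 7028 for Klk1b21. Serpina3c, once named kallikrein-binding protein, had 3338 and Serpina3n 2169. The other 6 were Eppin, Serpina3g, Serpina3i, Serpina6, Serpina3f and Spink2, with base means from 100.3 to 472. Among genes of proteins that kallikreins of this family are known to cut or act beside, 3 were listed, with base means of 1782 for Igfbp3, which binds insulin-like growth factors, 1057 for Fn1, which encodes fibronectin, and 362 for Igf1. The median base mean was 462 for the listed inhibitors and 1057 for the listed substrate genes, beside 679 for all listed genes. This order rested on length. Per kb of coding sequence the middle values were 619 (Serpina3g) for the inhibitors and 727 (Igf1) for the substrate genes, both above the median of 453 for listed genes. Genes that are not listed may be expressed, since the table holds a selected set.

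The cells sorted carried the genes that define Leydig cells. The highest base mean of the table was that of the eGFP transgene, 350200, and Cyp17a1, Insl3, Cyp11a1, Hsd3b1 and Star had between 87502 and 283675. Listed genes of other testicular cells were far lower than these. Base means were 137 for Amh and 89.0 for Dhh of Sertoli cells, 184 for Ddx4 of germ cells and 982 for Csf1r of macrophages. Tcf21 of interstitial progenitors had 216 and Esam of endothelium 102. Csf1r lay above the median of all listed genes, 679, and above Klk1b16, 458, in base mean. Per kb of coding sequence it gave 335 normalised counts, below both the median of 453 and Klk1b16 at 583. Lhcgr of Leydig cells and Sox9, Dazl, Pecam1 and Acta2 of other cells were looked for and were not listed. The part of any other testicular cell in the Klk1b levels was not tested.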

How the data were processed

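FLCs and ALCs were each sequenced as 3 libraries of 50-base paired ends. As the labels and methods state, reads were demultiplexed with Casava 1.8.2, mapped with GemTools to GRCm38, and counted per GENCODE gene in-house. The lengths and windows here are from vM21, a different GENCODE version from the one the paper names. They may not match the gene models that were counted. The authors compared the stages with DESeq2. The deposited signal (base mean) is the authors' mean over the 6 libraries of counts divided by size factors. The other columns hold the authors' fold change, its error, statistic and p-values, and were not used. All 10580 rows had an adjusted p under 0.05, and depth per library is not known.

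Levels were ranked, summed and divided by coding or exonic length (GENCODE vM21, matched by symbol for 10223 genes). Coding and promoter sequences were aligned in pairs with Biopython 1.88 (match 2, mismatch -1, gap -4 and -0.5) and over the 14 genes with mafft 7.526. RefSeq windows matched all 14 genes. Functions were tested on simulated sequences. The genes named are the 5, the listed genes of fixed kallikrein, kinin, inhibitor and substrate lists, the highest gene and Leydig and other cell markers. Members and lists were chosen with earlier results of these data known. No comparison of stages was made, and the alternatives were other denominators, lengths, windows and filters.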

Additional observations from a re-analysis of the deposited data

How the results depend on the processing

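The 5 genes held 0.0641% of the sum over listed genes, 0.0715% without the 10 genes of highest base mean, 0.0644% among genes with a base mean of at least 100 and 0.0651% without the eGFP row. Their share of the 14-gene sum was 92.2%, 93.4% per exonic length and 92.6% per window of a gene's own (the last 2 chosen after seeing the data). The share of Klk1b21, Klk1b24 and Klk1b27 in the 5-gene sum was 89.1%, and 89.0% per coding length, 90.0% per exonic length and 91.4% per window of a gene's own. None of these changes was over 1.5 times. Per exonic length the share of Klk1b16 fell from 3.22% to 2.06%, since GENCODE gives it a first exon of 598 bases. The ratios and ranks per exonic length and the ratios per window in the report were chosen after seeing the data. Values per window hold only if reads of shared windows were not counted, which is not known. At 36 bases, windows of a gene's own were 49.7% (Klk1b24) to 83.8% (Klk1b16), at 100 bases 96.5% (Klk1b21) to 100% (Klk1b22), and with only the other 4 genes compared 68.5% to 93.7%. Within 100 bases of the start, of the motifs searched only TTTAAA was found, in 4 of the 5 windows. The planned comparison of proteins was not run, and coding bases were compared in its place.

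No paired analysis was possible because the only values used are means over all 6 libraries. For the same reason no library was left out, and no spread, counting interval or difference between FLCs and ALCs, or between lanes, is given. A rank is among genes that the authors' comparison kept, not among all genes. How shared reads were counted bears on each single level and was not tested.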
